A study of Mus musculus with 6 samples.

Results

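The HOX genes of Ocy454 cells were examined, a mouse cell line with osteocyte properties. They were taken as every listed gene whose symbol is Hox followed by a cluster letter (a to d) and a number, which gave 38 of 39179 listed genes, with 11 in the Hoxa cluster, 10 in Hoxb, 9 in Hoxc and 8 in Hoxd. Hoxd4 was not analysed here. Cells had been switched from 33 °C to 37 °C for 14 days and were then exposed for 4 h to vehicle (PBS + 25 mM HCl), to PTH 1-34 at 1 nM, or to YKL-05-093, an inhibitor of salt-inducible kinases, at 0.5 µM. The labels give this vehicle for the whole experiment, whereas the methods name DMSO as the solvent of compounds used on cultured cells, and whether vehicle cells also received DMSO is not given in the sources used here. Each of the 3 conditions has 2 libraries, and all come from a single cell subclone of the line, so p-values measure the spread between libraries of 1 clone. Library totals recovered from the deposited values lay between 17505798 and 27983585 reads, which were the totals of vehicle replicates 1 and 2. The treated libraries had 19073347 to 21607344 reads. Libraries of a condition differed by a median of 0.33 on the log2 scale in vehicle, whereas PTH gave 0.11 and YKL-05-093 gave 0.10, so the vehicle libraries were the less alike.

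HOX genes encode homeodomain transcription factors that give cells along the body axis and the limb their positional identity. They lie in clusters on separate chromosomes, and genes with the same number in different clusters are paralogues derived from 1 ancestral gene. Genes with low numbers sit at the 3′ end of a cluster and are used early and anteriorly in the embryo, whereas genes with high numbers sit at the 5′ end and are used later and more posteriorly, or more distally in the limb. Connective tissue and skeletal cells are known to keep such a HOX code in the adult, where Polycomb proteins hold the unused genes silent.

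In vehicle-treated cells, 22 of the 38 HOX genes reached a mean of at least 0.5 RPKM (a read level per kilobase of gene length, relative to the library's total). These were 9 of 9 Hoxc genes, 8 of 11 Hoxa genes, 4 of 10 Hoxb genes and 1 of 8 Hoxd genes. Another 8 genes were low, with more than 3 reads in at least 1 library, and 8 did not exceed 3 reads in any library. The median of the 22 genes was 2.76 RPKM, against 6.81 RPKM for the 14264 genes that passed the filter on low values, described with the fold changes. Behind each value of the 22 genes lay between 15 and 1281 reads.

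Summed over genes, Hoxc gave 39.0 ± 1.37 RPKM in vehicle (SD, n = 2), Hoxa 24.8 ± 1.38, Hoxb 14.9 ± 0.030 and Hoxd 0.60 ± 0.13. Hoxc thus held 49.2% and 49.0% of the HOX sum in the vehicle libraries. Its share was 46.5% and 48.1% with PTH, and 44.8% and 44.8% after YKL-05-093. Hoxc was the highest cluster in all 6 libraries, ahead of Hoxa, Hoxb and Hoxd in that order. The sum over all 38 genes was 81.1 and 77.5 RPKM in vehicle, 73.2 and 74.3 with PTH, and 72.4 and 75.02 with YKL-05-093, lower in the 4 treated libraries than in both vehicle libraries. With 2 libraries against 2, an exact permutation test cannot go below p = 0.33, so these sums were not tested.

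By position along the clusters, paralogues 9 to 13 (16 genes) together gave 51.7 ± 0.26 RPKM in vehicle (SD, n = 2). Paralogues 5 to 8 (11 genes) gave 22.9 ± 2.12 and paralogues 1 to 4 (11 genes) gave 4.72 ± 0.21. These are sums and depend on the number of genes in each group. Paralogues 9 to 13 held 63.9% and 66.5% of the HOX sum in vehicle, and between 63.2% and 66.2% in the treated libraries. Paralogue 9, with 4 genes, had the highest sum at 17.2 ± 0.29 RPKM, followed by paralogue 10, with 3 genes, at 16.9 ± 0.99. The ranges of these groups overlapped. Paralogue 6 gave 11.1 ± 1.62 RPKM, of which Hoxc6 gave 6.55 ± 0.37. Paralogues 2 and 3 gave 0.22 ± 0.045 and 0.37 ± 0.19 RPKM.

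**Figure D1:**
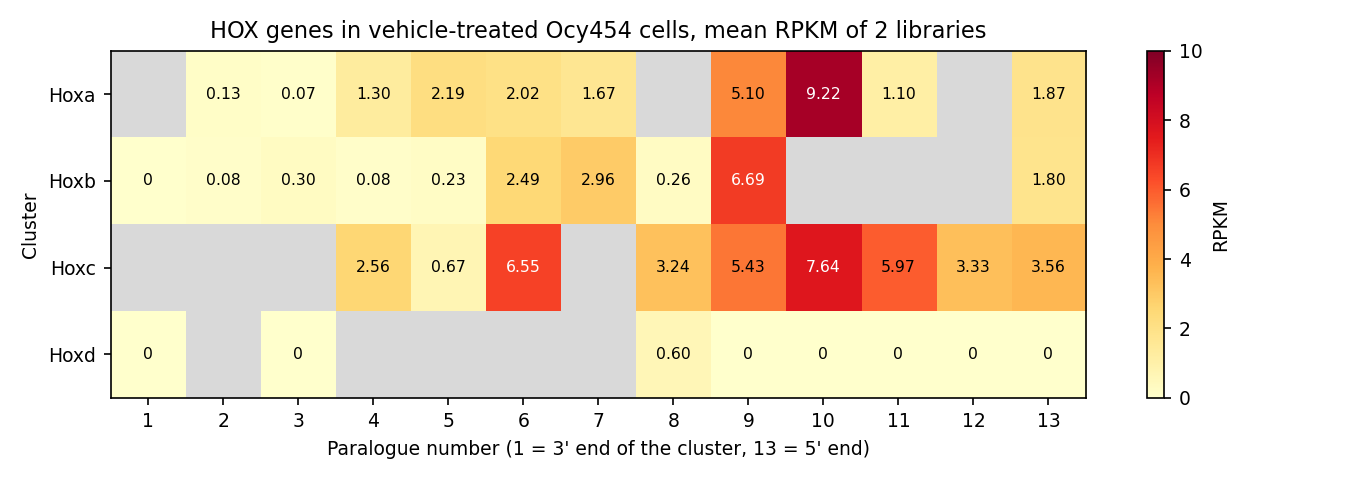
Mean RPKM of each HOX gene in the 2 vehicle libraries, with clusters in rows and paralogue numbers in columns (grey, no value shown). The Hoxc row is filled from Hoxc4 to Hoxc13, the highest square is Hoxa10 at 9.22 RPKM, and the Hoxd row is empty apart from Hoxd8 at 0.60.

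Hoxa10 (chr6:52231197-52240854, minus strand, GRCm38), which patterns the proximal limb and the lumbar region, had the highest level. It stood at 8.88 and 9.56 RPKM in vehicle, 8.74 and 9.33 with PTH, 9.61 and 9.22 with YKL-05-093, so the conditions overlapped. Its paralogue Hoxc10 (chr15:102966796-102971893, plus strand), a marker of lumbar and hindlimb identity in the embryo, came next at 7.28 and 8.002 RPKM in vehicle, 6.89 and 6.60 with PTH, 6.13 and 6.14 with YKL-05-093. Both vehicle libraries were above the 4 treated ones for Hoxc10. The fitted log2 change of Hoxc10 came to -0.18 with PTH (SE 0.16, limma adjusted p = 0.73) and to -0.31 with YKL-05-093 (SE 0.16, adjusted p = 0.71). Hoxc10 and Hoxc5 share exon bases on the same strand in the annotation, so reads in those bases cannot be given to 1 of them.

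Hoxb9 (chr11:96271457-96276595), a thoracic patterning gene, stood at 6.59 and 6.79 RPKM in vehicle, 7.47 and 7.53 with PTH, 7.67 and 8.54 with YKL-05-093. All 4 treated libraries were higher than vehicle, and the fitted log2 changes of 0.16 with PTH (SE 0.15, limma adjusted p = 0.74) and 0.27 with YKL-05-093 (SE 0.16, adjusted p = 0.76) did not pass the test. Hoxc6 (chr15:102998257-103011881), whose expression marks the forelimb and thoracic level in the embryo, was at 6.81 and 6.29 RPKM in vehicle, 5.58 and 6.78 with PTH, 7.81 and 7.35 with YKL-05-093. Hoxc9 (chr15:102976439-102985099) was at 5.18 and 5.69 RPKM in vehicle, 5.59 and 6.66 with PTH, 6.77 and 6.16 with YKL-05-093. Its paralogue Hoxa9 (chr6:52223100-52231089) was at 5.24 and 4.95 RPKM in vehicle, 4.63 and 3.64 with PTH, 4.61 and 5.13 with YKL-05-093. Hoxc11 (chr15:102954427-102957708) was at 6.28 and 5.66 RPKM in vehicle, 5.27 and 4.83 with PTH, 4.39 and 4.85 with YKL-05-093.

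In the order of vehicle levels, Hoxa10 and then Hoxc10 stood clear of the next gene, in that their lowest library was above the highest of the gene below. Hoxb9 and Hoxc6 overlapped and were clear of the genes below, and Hoxc9 overlapped both Hoxc11 above it and Hoxa9 under it. A gap followed Hoxa9, and from Hoxc13 down to Hoxa7 at 1.67 ± 0.10 RPKM (SD, n = 2) every gene overlapped its neighbour. The last of the 22 were Hoxc5 at 0.67 ± 0.033 RPKM and Hoxd8 at 0.60 ± 0.13.

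**Figure D2:**
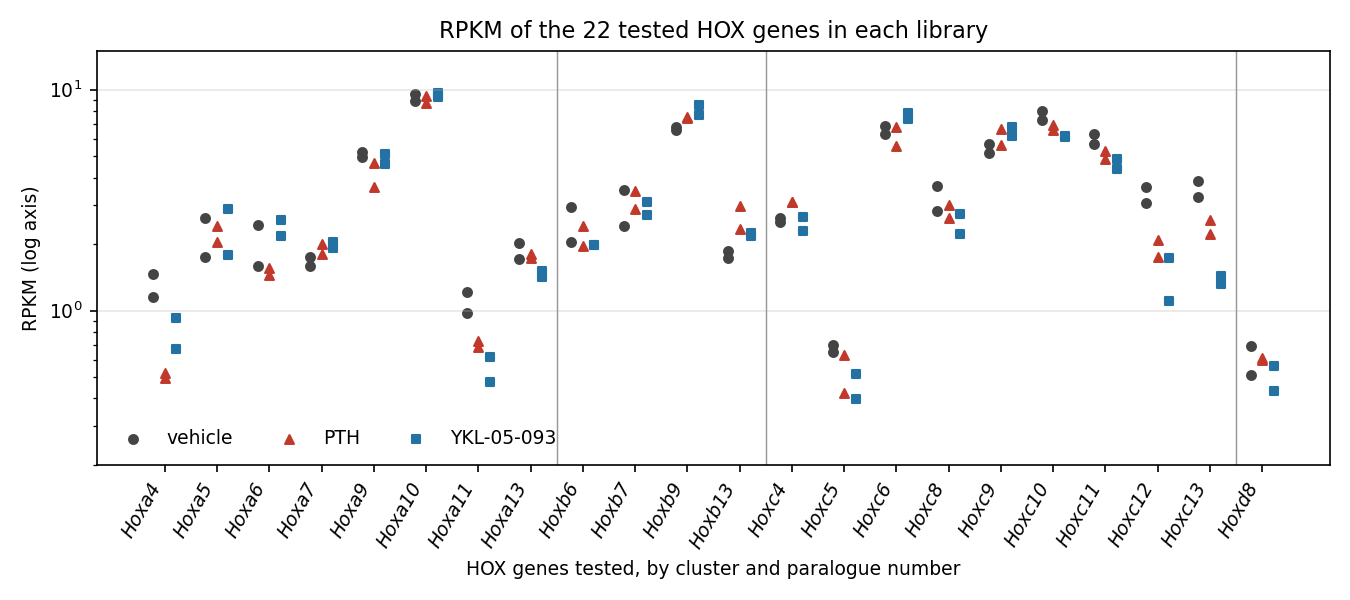
RPKM (log axis) of the 22 tested HOX genes in each library, with vehicle, PTH and YKL-05-093 side by side and vertical lines between clusters. Most genes show 6 points close together, whereas for Hoxc12 and Hoxc13 the vehicle points are highest and the YKL-05-093 points lowest.

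The Hoxd cluster (chr2:74668310-74765142) was close to silent. Hoxd9, Hoxd10, Hoxd12 and Hoxd13, genes that pattern the forearm and digits with their Hoxa paralogues, had 0 reads in all 6 libraries. Hoxd1, Hoxd3 and Hoxd11 had at most 1 read per library. Spread over 2000 bases, 3 reads would give 0.0536 to 0.0857 RPKM depending on the library, which is the level that a count of 0 allows (counting error only). Hoxd8 was the exception at 0.51 and 0.69 RPKM in vehicle, 0.61 and 0.60 with PTH, 0.56 and 0.43 with YKL-05-093, with 19 to 41 reads per library.

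Among the other low genes, Hoxb1 had between 0 and 2 reads. Hoxa2, Hoxa3, Hoxb2, Hoxb3, Hoxb4, Hoxb5 and Hoxb8 lay between 0.019 and 0.40 RPKM over all libraries.

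The paralogue pairs Hoxa10 and Hoxd10, and Hoxa13 and Hoxd13, have 1 member that was read in every library and 1 at 0. Their sequences for the 250 bases before the RefSeq start site (GRCm38.p6) are shown side by side. Each CG dinucleotide, the site of DNA methylation, is in capitals. Values per gene do not show which start site was in use, so these windows are not shown to be active or silent promoters. The windows are chr6:52240855-52241104 (minus strand), chr2:74691641-74691890 (plus), chr6:52260881-52261130 (minus) and chr2:74667975-74668224 (plus).
Hoxa10: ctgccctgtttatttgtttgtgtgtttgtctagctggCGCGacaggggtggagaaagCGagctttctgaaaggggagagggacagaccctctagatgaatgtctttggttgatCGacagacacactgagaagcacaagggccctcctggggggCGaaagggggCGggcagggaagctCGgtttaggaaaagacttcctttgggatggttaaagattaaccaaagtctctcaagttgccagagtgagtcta
Hoxd10: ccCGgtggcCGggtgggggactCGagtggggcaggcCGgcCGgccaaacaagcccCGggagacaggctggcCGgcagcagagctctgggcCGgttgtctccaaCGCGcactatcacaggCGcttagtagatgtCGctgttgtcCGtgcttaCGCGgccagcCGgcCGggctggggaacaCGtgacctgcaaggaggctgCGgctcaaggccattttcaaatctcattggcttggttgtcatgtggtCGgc
Hoxa13: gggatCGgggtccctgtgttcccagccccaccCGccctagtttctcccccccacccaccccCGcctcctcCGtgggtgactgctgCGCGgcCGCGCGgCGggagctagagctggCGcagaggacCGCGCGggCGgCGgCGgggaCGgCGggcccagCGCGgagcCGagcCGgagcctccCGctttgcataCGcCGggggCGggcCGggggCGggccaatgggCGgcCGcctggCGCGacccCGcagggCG
Hoxd13: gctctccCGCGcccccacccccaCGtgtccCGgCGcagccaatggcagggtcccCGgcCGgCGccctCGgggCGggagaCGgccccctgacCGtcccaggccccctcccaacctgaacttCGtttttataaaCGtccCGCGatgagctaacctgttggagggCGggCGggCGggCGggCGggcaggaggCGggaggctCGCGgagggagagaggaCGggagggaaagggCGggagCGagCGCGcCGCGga
The Hoxa10 window holds 7 CG and the Hoxd10 window 20, which 46.3% and 17.9% of all 32851 promoters in the table reach or exceed. Hoxa13 holds 35 CG and Hoxd13 holds 31, reached by 2.97% and 5.19% of promoters. A promoter was given for 21 of the 38 genes, among them neither Hoxc12 nor Hoxc13. The 9 windows of tested genes held 3 to 35 CG (median 8), and the 8 windows of genes at or under 3 reads held 2 to 31 (median 12.5), so the groups overlapped over most of their range. The median over all promoters was 6. The cAMP response element TGACGTCA was in 0 of the 21 windows and in 1.55% of all promoters, and its core TGACG, on either strand, was in 6 (Hoxa5, Hoxa6, Hoxa11, Hoxb1, Hoxd3 and Hoxd8) and in 17.8% of all promoters.

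Fold changes were tested with limma on log2(RPKM + 0.1) over every gene that reached 0.5 RPKM in 2 or more of the 6 libraries, which kept 22 HOX genes. The pseudocount of 0.1 RPKM makes the fold changes understate the change of low genes. A change was called where the adjusted p lay under 0.05 and the size was above 2-fold. In bulk RNA, fewer cells of a type and less RNA per cell cannot be told apart. After PTH, 0 of 22 HOX genes were called, against 1.91% of all genes tested (1.09% higher and 0.813% lower). An unadjusted p under 0.05 was found for 5 HOX genes (background 13.3%), of which 1 was on the higher side (background 6.42%) and 4 on the lower (6.89%). voom on the recovered reads also called 0. After YKL-05-093, 1 of 22 was called (background 0.666%), which was Hoxc13, on the lower side (background 0.274%, and 0.393% higher). An unadjusted p under 0.05 was found for 3 HOX genes (background 8.67%), all on the lower side (4.77%, and 3.9% on the higher). Between PTH and YKL-05-093, 0 of 22 passed both thresholds by limma (background 1.21%, with 0.737% higher and 0.47% lower after PTH), and voom on the recovered reads called 0 as well. An unadjusted p under 0.05 was found for 4 HOX genes (background 22.3%), 2 on the higher side (11.4%) and 2 on the lower (10.8%). Hoxc13 alone passed the adjusted p there, as did 9.97% of all genes. PTH and YKL-05-093 were compared with the same vehicle libraries.

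The median log2 fold change of the 22 genes was -0.13 for PTH, against -0.03 for all genes tested, and -0.15 for YKL-05-093, against -0.04. For PTH, 17 of the 22 genes were within 0.5 of 0 on the log2 scale, and for YKL-05-093, 18. The 95% interval of a fold change, which is not adjusted for the number of genes, extended by a median of 0.46 to either side in both comparisons. Passing the adjusted p took a larger change. Log2 fold changes of -1.20, for Hoxa4 with PTH and for Hoxc12 with YKL-05-093, were not called, so the counts called leave sizeable changes open. The libraries of PTH and vehicle did not overlap for 13 of the 22 genes, 4 higher and 9 lower, against 43.1% of all genes tested (19.1% higher and 24% lower). Those of YKL-05-093 and vehicle did not overlap for 15, 5 higher and 10 lower, against 37.8% (15.7% higher and 22.1% lower). Between the treatments 12 genes did not overlap, 8 higher and 4 lower after PTH, against 50% (26.3% higher and 23.7% lower).

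**Figure D3:**
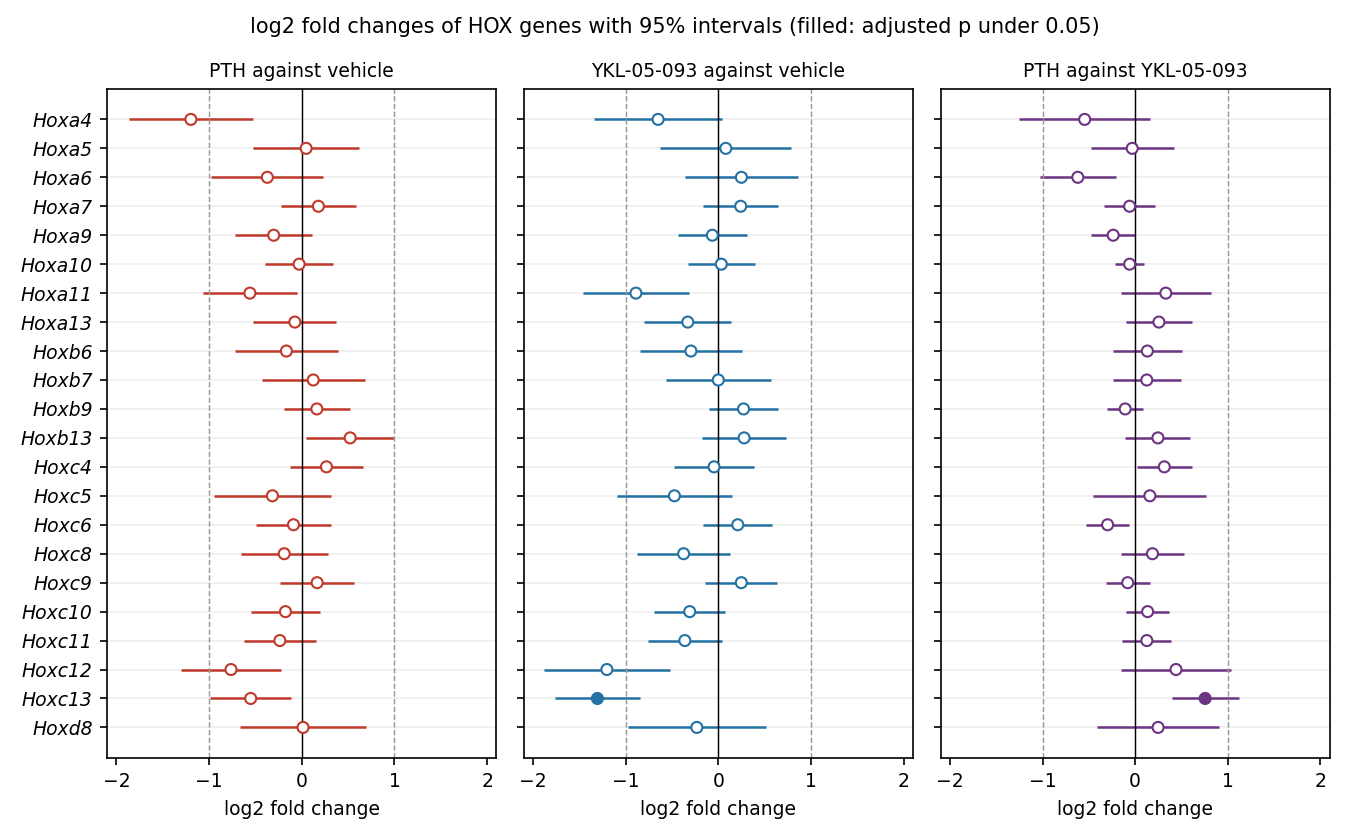
log2 fold changes with 95% intervals of the 22 tested HOX genes in the 3 comparisons, with dashed lines at a 2-fold change and filled points for an adjusted p under 0.05. The filled points are Hoxc13 after YKL-05-093, at -1.31, and Hoxc13 for PTH against YKL-05-093, at 0.76.

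Hoxc13 (chr15:102921103-102928814, plus strand), the most 5′ Hoxc gene and a regulator of hair and nail keratin genes, fell after YKL-05-093. It stood at 3.86 and 3.27 RPKM in vehicle, 2.58 and 2.22 with PTH, 1.32 and 1.43 with YKL-05-093, from 166 and 225, 137 and 104, and 66 and 73 reads. The 3 conditions did not overlap, with vehicle highest and YKL-05-093 lowest. The log2 fold change for YKL-05-093 was -1.31 (SE 0.19, 95% interval -1.76 to -0.85, limma adjusted p = 0.046), which is 2.47-fold lower. For PTH it was -0.55 (SE 0.19, adjusted p = 0.26). Directly compared, Hoxc13 was higher after PTH than after YKL-05-093 by 0.76 (SE 0.17, adjusted p = 0.0081).

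The call of Hoxc13 for YKL-05-093 lay close to the threshold. Its adjusted p was 0.0503 with voom on the recovered reads, 0.055 with a pseudocount of 1 RPKM, 0.064 with a filter of 0.1 RPKM, 0.20 without a filter and 0.12 with the trend on the mean value. It was 0.096 without vehicle replicate 1, and 0.53 and 0.19 without YKL-05-093 replicate 1 and 2. Over all 13 alternatives the log2 fold change lay between -1.42 and -0.94. The direct comparison of Hoxc13 was under 2-fold and so was not called. Its limma adjusted p went over 0.05 without a filter (0.11), with the trend on the mean value (0.057) and in 1 fit of all 6 libraries (0.12). The same held without PTH replicate 1 or 2 or YKL-05-093 replicate 1 or 2. Over the 13 alternatives the direct log2 fold change lay between 0.51 and 0.86.

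Hoxc12 (chr15:102936757-102938609), the neighbour of Hoxc13, was at 3.61 and 3.06 RPKM in vehicle, 1.75 and 2.09 with PTH, 1.10 and 1.73 with YKL-05-093, with 23 to 88 reads per library. All 4 treated libraries were below vehicle. The log2 fold change of Hoxc12 was -1.20 for YKL-05-093 (SE 0.29, limma adjusted p = 0.19) and -0.76 for PTH (SE 0.23, adjusted p = 0.20), and neither passed the test. The fold changes for YKL-05-093 along the rest of the cluster were smaller, at -0.36 for Hoxc11, -0.31 for Hoxc10, 0.25 for Hoxc9, -0.38 for Hoxc8, 0.21 for Hoxc6, -0.48 for Hoxc5 and -0.048 for Hoxc4. Hoxc10 to Hoxc13 were thus on the lower side, as were Hoxc8, Hoxc5 and Hoxc4, while Hoxc9 and Hoxc6 were on the higher. Hoxc10 and Hoxc11 fell less than Hoxc8 and Hoxc5. With PTH, Hoxc10 and Hoxc11 were at -0.18 and -0.24. Of the 22 tested HOX genes, 14 had a negative fold change in each comparison with vehicle. A trend along the cluster was not tested.

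Hoxc8 (chr15:102990607-102994111), expressed at the thoracic level, was at 3.66 and 2.83 RPKM in vehicle, 2.62 and 3.01 with PTH, 2.21 and 2.73 with YKL-05-093. Hoxc5 was at 0.65 and 0.69 RPKM in vehicle, 0.63 and 0.42 with PTH, 0.40 and 0.52 with YKL-05-093. Hoxc4 (chr15:103018934-103036852) was at 2.62 and 2.51 RPKM in vehicle, 3.10 and 3.10 with PTH, 2.30 and 2.66 with YKL-05-093. The lowest limma adjusted p of these genes was 0.1996, for Hoxc4 between PTH and YKL-05-093.

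In the Hoxa cluster, Hoxa4 (chr6:52189671-52191753), an anterior gene of the neck and upper trunk, was at 1.15 and 1.46 RPKM in vehicle, 0.52 and 0.49 with PTH, 0.93 and 0.67 with YKL-05-093. The libraries of the 3 conditions did not overlap, and PTH was lowest. With only 15 to 65 reads per library, the fitted log2 change with PTH was -1.20 (SE 0.28, limma adjusted p = 0.10), that for YKL-05-093 was -0.65 (SE 0.29, adjusted p = 0.61), and the direct difference was -0.55 (SE 0.33, adjusted p = 0.38). Hoxa11 (chr6:52242106-52245810), which patterns the forearm and lower leg, was at 1.22 and 0.97 RPKM in vehicle, 0.73 and 0.69 with PTH, 0.47 and 0.62 with YKL-05-093. All 4 treated libraries lay under vehicle, and the fitted log2 changes of -0.56 with PTH (SE 0.22, limma adjusted p = 0.32) and -0.89 with YKL-05-093 (SE 0.24, adjusted p = 0.26) did not pass the test.

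Hoxa6 (chr6:52206288-52208722) was at 2.44 and 1.59 RPKM in vehicle, 1.55 and 1.46 with PTH, 2.57 and 2.17 with YKL-05-093. PTH and YKL-05-093 did not overlap, with a difference of -0.62 for PTH against YKL-05-093 (SE 0.19, limma adjusted p = 0.056), while the vehicle libraries spanned most of that range. Hoxa13 (chr6:52257694-52260880), the gene of the hand and foot plate, was at 2.02 and 1.72 RPKM in vehicle, 1.81 and 1.72 with PTH, 1.42 and 1.51 with YKL-05-093. Hoxb13 (chr11:96194316-96197447), a gene of the tail bud and prostate, was at 1.74 and 1.86 RPKM in vehicle, 2.96 and 2.33 with PTH, 2.24 and 2.17 with YKL-05-093. It was on the higher side in all 4 treated libraries, with a log2 fold change of 0.52 for PTH (SE 0.20, limma adjusted p = 0.32) and 0.28 for YKL-05-093 (SE 0.19, adjusted p = 0.81). Paralogues 13 thus had fold changes of either sign. The other tested HOX genes, Hoxa5, Hoxa7, Hoxb6 and Hoxb7, lay between 1.59 and 3.50 RPKM over all libraries, with limma adjusted p-values of at least 0.737.

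**Figure D4:**
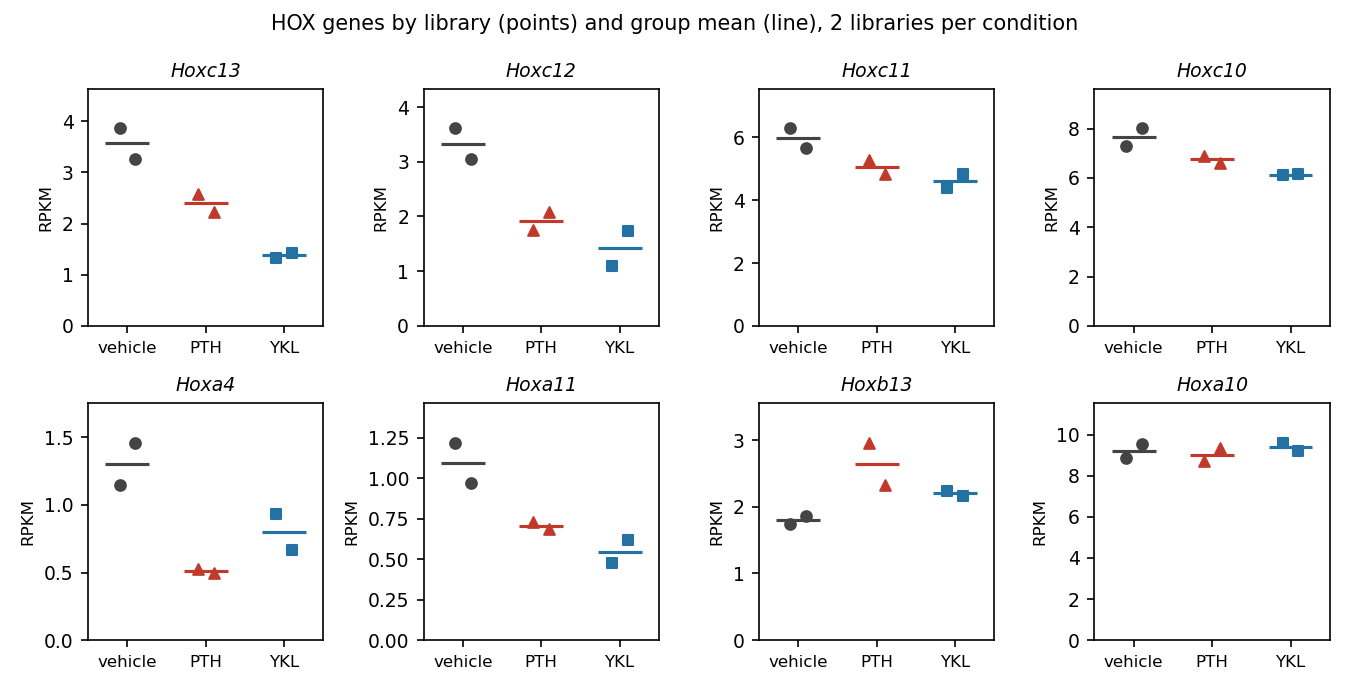
RPKM of 8 HOX genes in each library (points) with the mean of each condition (line), each axis from 0. Hoxc13, Hoxc12 and Hoxa11 are highest in vehicle and lowest after YKL-05-093, Hoxa4 is lowest after PTH, and Hoxa10 overlaps between conditions.

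HOX clusters also hold noncoding RNAs on either strand, such as Hotair in Hoxc and Hottip and Hotairm1 in Hoxa, which have been linked to the chromatin state of HOX genes. Of 47 noncoding and flanking genes, 43 were listed, 9 were tested and 0 were called in any comparison (2-fold and adjusted p, backgrounds as for the HOX genes). At an adjusted p under 0.05 with no limit on the fold, limma and voom also passed 0. An unadjusted p under 0.05 was found for 0, 0 and 1 of the 9 with PTH, with YKL-05-093 and between the treatments. Hotair was at 0.74 and 0.57 RPKM in vehicle, 0.45 and 0.60 with PTH, 0.42 and 0.54 with YKL-05-093. Hottip did not exceed 0.0386 RPKM. Hotairm1 was at 0.39 and 0.67 RPKM in vehicle, 0.23 and 0.21 with PTH, 0.24 and 0.28 with YKL-05-093, all 4 treated libraries being below vehicle. These values rest on only 7 and 19 reads in vehicle, 5 and 4 with PTH, and 5 and 6 with YKL-05-093. Hotairm1 did not pass the filter and was not tested. Hotair, Hotairm1 and Hottip were singled out after their values had been seen. The highest of these genes was the processed pseudogene Gm11539 between Hoxb13 and Hoxb9, at 56.2 to 82.2 RPKM, and its reads may belong to a similar gene elsewhere. HOTAIRM1_5 and Gm15050 followed, at 1.43 ± 0.25 and 0.81 ± 0.32 RPKM in vehicle (SD, n = 2). These rest on only 4 and 5 reads for HOTAIRM1_5 and 10 and 9 for Gm15050, against 35 and 43 for Hotair. HOTAIR_4 and HOTAIR_5, which were also tested, had 1 to 5 reads per library. For genes with so few reads, the lack of a call says little.

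Exon bases shared with a gene on the opposite strand were found in the annotation for genes that include Hoxa3, Hoxa4, Hoxa7, Hoxa11, Hoxb2, Hoxb3, Hoxb5 and Hoxd3. The libraries kept the strand, but whether counting used it is not given in the sources used here, so for these genes reads from the partner cannot be told apart. None of Hoxc10 to Hoxc13 shares exon bases with an opposite-strand gene.

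HOX proteins bind DNA together with homeodomain cofactors of the PBX, MEIS and PKNOX families. Of 9 cofactors listed, 8 were tested and 0 were called by limma or voom in any comparison, with 1 at an unadjusted p under 0.05 in each (over all genes, 13.3% with PTH, 8.67% with YKL-05-093 and 22.3% between the treatments). Pbx2 was the highest at 11.1 ± 0.56 RPKM in vehicle, against 13.2 ± 0.39 with PTH and 11.9 ± 0.64 with YKL-05-093 (SD, n = 2). Meis3 and Pknox1 followed at 5.81 ± 0.35 and 5.40 ± 0.90 RPKM in vehicle.

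All 19 genes on a list of Polycomb components, which keep unused HOX genes silent, were tested, and 0 were called by limma or voom, with 1, 3 and 3 at an unadjusted p under 0.05 with PTH, with YKL-05-093 and between the treatments (over all genes, 13.3%, 8.67% and 22.3%, and 1.91%, 0.666% and 1.21% called). Of 11 trithorax and demethylase genes, which counteract Polycomb, 11 were tested and 0 were called by either tool, with 1 at an unadjusted p under 0.05 in each comparison, against the same shares over all genes. Rbbp7, Rbbp4 and Rnf2 were the highest Polycomb genes. Rbbp7 was at 118 and 126 RPKM in vehicle, Rbbp4 at 36.1 and 39.7, and Rnf2 at 28.1 and 24.2. Psip1, Ash2l and Wdr5 led the other list, with 34.6 ± 6.56, 22.6 ± 0.67 and 22.4 ± 1.82 RPKM in vehicle (SD, n = 2). Phc2, a subunit of Polycomb repressive complex 1, was at 9.98 and 9.22 RPKM in vehicle, 7.30 and 8.35 with PTH, 6.51 and 6.37 with YKL-05-093, and differed between PTH and YKL-05-093 by 0.27 (SE 0.080, limma adjusted p = 0.039), which passed in 2 of 13 alternatives. The median log2 fold change of the Polycomb list was -0.05 for PTH and -0.15 for YKL-05-093.

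CDX proteins and retinoic acid switch on HOX clusters in the embryo. Cdx1, Cdx2 and Cdx4 did not exceed 0.132 RPKM. Of the 19 genes on this list, 12 were tested. After PTH, 1 was called higher and 1 lower (over all genes, 1.09% and 0.813%). After YKL-05-093, 1 was called higher (0.393%), and between the treatments, 1 was called higher after PTH (0.737%). Cyp26a1, an enzyme that breaks down retinoic acid, was at 0.32 and 0.30 RPKM in vehicle, 1.07 and 1.60 with PTH, 0.17 and 0.27 with YKL-05-093. Its fitted log2 change after PTH was 1.77 (SE 0.32, limma adjusted p = 0.037), and PTH against YKL-05-093 gave 2.16 (SE 0.36, adjusted p = 0.00061). Cyp26a1 reached 0.5 RPKM only in the PTH libraries, so it entered the test through the condition where it was high. Its p-values and its call are to be read with that limit. The reads behind it were 10 and 15 in vehicle, 41 and 54 with PTH, and 6 and 10 with YKL-05-093.

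Cyp26b1, an enzyme with the same role in the limb, was at 1.77 and 1.16 RPKM in vehicle, 0.42 and 0.37 with PTH, 0.53 and 0.47 with YKL-05-093. It fell after PTH, with a log2 fold change of -1.64 (SE 0.25, limma adjusted p = 0.021), and the value for YKL-05-093 was -1.36 (SE 0.25, adjusted p = 0.085). Dhrs3, which returns retinaldehyde to retinol, was at 2.09 and 2.37 RPKM in vehicle, 3.65 and 3.30 with PTH, 6.92 and 7.0003 with YKL-05-093. It rose after YKL-05-093 by 1.60 on the log2 scale (SE 0.17, limma adjusted p = 0.017), and PTH against YKL-05-093 gave -0.98 (adjusted p = 8.9e-06). Rdh10, which makes retinaldehyde, was higher after PTH than after YKL-05-093 by 0.48 (SE 0.13, limma adjusted p = 0.028), with 2.44 ± 0.078 against 1.72 ± 0.20 RPKM (SD, n = 2). Rara, a retinoic acid receptor, was higher after PTH as well, by 0.42 (SE 0.084, limma adjusted p = 0.0036), with 8.01 ± 0.12 against 5.99 ± 0.42 RPKM (SD, n = 2). Crabp1, Rxra and Rarg, the most abundant of the list, stood at 26.4 ± 9.84, 22.1 ± 4.07 and 13.4 ± 0.21 RPKM in vehicle, with limma adjusted p-values of at least 0.159. Of the 13 alternatives, the changes after PTH passed in 7 for Cyp26a1 and 8 for Cyp26b1, and that of Dhrs3 after YKL-05-093 in 8. Both calls after PTH were lost with a pseudocount of 1 RPKM, without a filter, with the trend on the mean value and without either PTH library. That of Cyp26a1 was also lost with voom. The call of Dhrs3 was lost without a filter, with the trend on the mean value, and without vehicle replicate 1 or either YKL-05-093 library. Over the alternatives the log2 fold changes lay between 0.82 and 2.04 for Cyp26a1, -1.92 and -0.81 for Cyp26b1, and 1.30 and 1.69 for Dhrs3. Rdh10 and Rara passed in 4 and 6 alternatives between the treatments, Cyp26a1 in 9 and Dhrs3 in 11, and each lost its call without either PTH library.

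The transcription factors that tell the limbs apart in the embryo were set beside the HOX code. Pitx1, a gene of the hindlimb, was at 6.42 and 6.51 RPKM in vehicle, 5.36 and 6.07 with PTH, 5.95 and 6.04 with YKL-05-093. Tbx5, a gene of the forelimb, did not exceed 0.0133 RPKM, and Tbx4, the hindlimb paralogue of Tbx5, was at 0 in all 6 libraries. These genes were singled out after their values had been seen. The limb bud genes Shox2, Tbx15 and Tbx18 were the highest of the list. Shox2 was at 29.8 and 26.2 RPKM in vehicle, Tbx18 at 10.4 and 8.36, and Tbx15 had a mean of 17.8 ± 4.51 (SD, n = 2). The head gene Otx2 did not exceed 0.0205 RPKM.

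Of 27 such genes, 14 were tested. After PTH, 1 was called lower (over all genes, 0.813%), after YKL-05-093, 0 were called by limma (0.666%), and between the treatments, 1 was called lower after PTH (0.47%). By limma with no limit on the fold, 2 passed an adjusted p under 0.05 after PTH, 0 after YKL-05-093 (0 with voom, and 2 at an unadjusted p under 0.05), and 3 between the treatments. Over all genes, 2.19%, 0.666% and 9.97% passed. Tbx2, a repressor expressed at the limb margins, was at 5.67 and 6.24 RPKM in vehicle, 2.07 and 2.20 with PTH, 2.15 and 3.26 with YKL-05-093. It fell after PTH, with a log2 fold change of -1.44 (SE 0.16, limma adjusted p = 0.0064), and the value for YKL-05-093 was -1.14 (SE 0.22, adjusted p = 0.10). En1, the gene of the ventral limb ectoderm, was at 4.67 and 4.15 RPKM in vehicle, 2.17 and 2.19 with PTH, 2.26 and 2.93 with YKL-05-093. En1 fell after PTH, with a log2 fold change of -0.98 (SE 0.16, limma adjusted p = 0.028), just under the 2-fold limit. Gli1, a target of hedgehog signalling, was at 1.41 and 0.87 RPKM in vehicle, 0.52 and 0.49 with PTH, 1.55 and 1.87 with YKL-05-093, a difference of -1.58 for PTH against YKL-05-093 (SE 0.19, limma adjusted p = 3.0e-05). Shox2, at 23.0 and 23.3 RPKM with PTH and 30.2 and 31.1 with YKL-05-093, differed by -0.40 (SE 0.064, limma adjusted p = 0.00049). Gli3, a hedgehog-controlled repressor that shapes the digits, was at 5.26 and 5.25 RPKM with PTH and 3.96 and 3.96 with YKL-05-093, a difference of 0.40 (SE 0.073, limma adjusted p = 0.0015). Its vehicle libraries stood at 6.87 and 4.05 RPKM, so the PTH values lay within the vehicle span and those of YKL-05-093 just under it. Of 13 alternatives, Tbx2 passed in 10 and En1 in 9 with PTH, and Gli1 passed in 11, Shox2 in 7 and Gli3 in 6 between the treatments. Each went over an adjusted p of 0.05 without PTH replicate 1 or 2. Shox2 and Gli3 also did so in 1 fit of all 6 libraries (limma adjusted p = 0.32 and 0.76) and without either YKL-05-093 library. Of these changes only those of Tbx2 and Gli1 had been called, the others being under 2-fold. Over the alternatives the log2 fold change lay between -1.50 and -1.15 for Tbx2 and between -1.75 and -0.85 for Gli1.

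**Figure D5:**
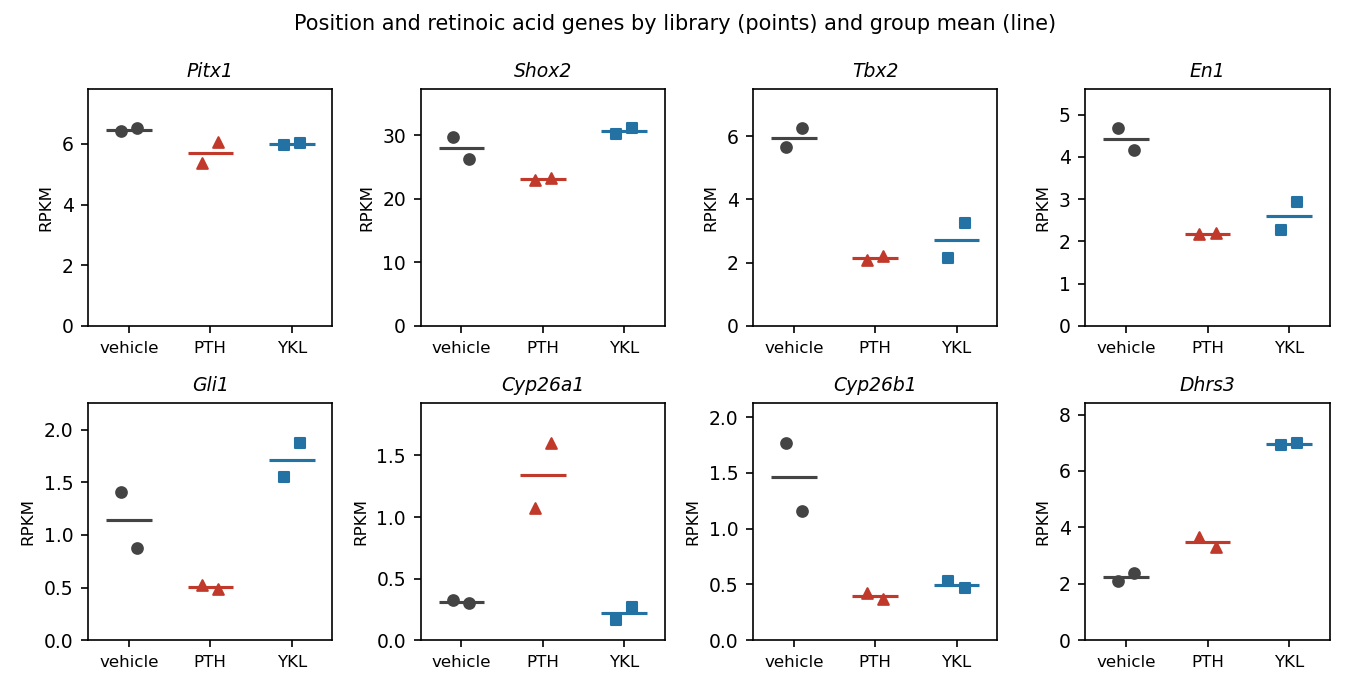
RPKM of 8 position and retinoic acid genes in each library (points) with the mean of each condition (line), each axis from 0. Tbx2, En1 and Cyp26b1 are lower in all 4 treated libraries, Cyp26a1 stands apart after PTH and Dhrs3 after YKL-05-093, and Pitx1 stays between 5.36 and 6.51 RPKM.

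The label of an osteocytic line was checked against 13 osteoblast and osteocyte markers, of which 10 had at least 0.5 RPKM in vehicle. Col1a1, at 259 to 430 RPKM, Ibsp, Alpl, Spp1, Pdpn and Sp7 were high, whereas the osteocyte genes Sost, Fgf23 and Mepe did not exceed 0.14 RPKM and Dmp1 lay between 0.38 and 1.15. Of these markers, Pdpn and Bglap were called higher and Sp7 lower after PTH, against 1.91% of all genes called. After YKL-05-093, 0 were called by limma or voom (0.666% over all genes by limma), with 5 of the 10 at an unadjusted p under 0.05 (8.67%). Summed markers of muscle (5 genes) lay between 0.48 and 0.66 RPKM over all libraries, and those of epithelium (4 genes) between 0.16 and 0.39, with 0 tested in either list. The haematopoietic list (6 genes) summed to 3.83 to 4.51 RPKM, nearly all from Cd68, the neuronal list (4 genes) to 13.2 to 19.5, nearly all from Tubb3, and the adipocyte list (5 genes) to 8.72 to 12.5, mostly from Cebpa. The endothelial list (5 genes) summed to 0.72 and 1.16 RPKM in vehicle, 1.14 and 1.44 with PTH, 2.17 and 1.96 with YKL-05-093, where Kdr was called higher while Cdh5 was at 0 in all libraries. The chondrocyte list (6 genes) summed to 2.71 and 2.11 RPKM in vehicle and to 3.63 to 3.82 in the treated libraries, with Acan at most 0.0189 and Col2a1 called higher after PTH. The part of these genes in the HOX values was not tested.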

How the data were processed

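RNA of Ocy454 cells, as 6 libraries with 2 for each of vehicle, PTH and YKL-05-093, was sequenced from strand-specific libraries after removal of rRNA. The authors used STAR for alignment to the mm10 build (GRCm38) and HTSeq with Ensembl release 75 for gene counts, and deposited RPKM values on a linear scale, relative to the total reads of each library. The submitters' processing notes also name CASAVA 1.7. How gene lengths were taken is not given in the sources used here.

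Reads behind each RPKM were recovered from the steps between values, with library totals of 17505798 to 27983585 reads, and served to model the spread and to set a floor of 3 reads. Log2(RPKM + 0.1) was tested with limma 3.58.1 in R 4.3.3, keeping the 14264 genes that reached 0.5 RPKM in 2 or more libraries. The prior variance followed the mean log2 reads, and fits were made separately in the 4 libraries of each comparison, and with Benjamini-Hochberg adjustment over all genes. The fits and the recovery of reads were tried on simulated data, where reads were recovered exactly for 98.8% of 3967 genes. The simulated libraries had a single shared spread. The wider spread of the vehicle libraries was thus not covered. A log2 fold change is a difference of mean log2(RPKM + 0.1), and SE is that of limma. Positions, strands and shared exons come from GENCODE M21, which holds 37607 of the identifiers (96.0%), and promoters from RefSeq.

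Every HOX gene is counted, and some genes are not reported here by name. Values are given in full for HOX genes with an adjusted p under 0.05 in any comparison, the 6 with the largest absolute log2 fold change in each, and those highest in vehicle. Of other lists, up to 4 members past the adjusted p and up to 3 by level are named. The members and lists were chosen with earlier results of these data known. Alternatives were other pseudocounts, filters, spread models, voom, median-ratio scaling, 1 fit of all libraries, the replicate number as a block, and leaving out each library.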

Additional observations from a re-analysis of the deposited data

How the results depend on the processing

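The number of HOX genes called for PTH was 0 in the setting reported and 1 (Hoxa4) with the replicate number as a block. For YKL-05-093 it was 1, and 0 with a pseudocount of 1 RPKM, without a filter, with a filter of 0.1 RPKM, with the trend on the mean value and with voom. It was 2 (Hoxc13 and Hoxc12) with the replicate block, and 0 to 1 when 1 library was left out. Between PTH and YKL-05-093 it was 0, and 1 (Hoxc13) with no limit on the fold change or with a limit of 1.5-fold. The replicate numbers did not pair the libraries, since deviations of libraries with the same number correlated at -0.034, -0.054 and -0.049, and the block was therefore only an alternative. When 1 library was left out, the lone library of its condition was assumed to vary like the others.

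The summed RPKM in vehicle, without genes that share exons with the opposite strand, was 74.4 for all HOX genes (79.3 with them), 20.5 for Hoxa (24.8), 14.3 for Hoxb (14.9), 2.78 for paralogues 1 to 4 (4.72) and 50.6 for paralogues 9 to 13 (51.7). With median-ratio scaling, Hoxb gave 14.6 and paralogues 9 to 13 gave 50.7. With a limit of 0.1 or 1 RPKM in place of 0.5, 27 or 20 HOX genes were detected. Among the HOX genes only Hoxc13 had an adjusted p under 0.05 to lose. It had one for YKL-05-093 and for PTH against YKL-05-093, with 13 alternatives each. Of 351 refitted log2 fold changes of named HOX genes, 328 kept their direction and side of the threshold, which for most meant staying over it. All 15 that lost an adjusted p under 0.05 were of Hoxc13, and 5 refits gained one. The sign turned for 3, none of which passed the test: Hoxa6 for YKL-05-093 without vehicle replicate 2 (-0.047 to 0.54 over the libraries left out), Hoxc4 for YKL-05-093 without YKL-05-093 replicate 1 (-0.15 to 0.054) and Hoxc5 for PTH against YKL-05-093 without PTH replicate 1 (-0.079 to 0.40). Genes of other lists kept their direction in all 13 alternatives in the comparisons where they had passed the adjusted p, and alternatives were not tabulated for the others. In each setting the cause was not tested. Depth limits Hoxa4 and Hoxc12 most among the genes with large fold changes, with 15 to 88 reads per library.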
